A study of Mus musculus with 32 samples.

Results

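RNA polymerase II (Pol II) on the genes of mouse heart was compared with Pol II on the genes of mouse liver. Of the 27179 genes in the table, 20305 entered the comparison, because 2 or more of the 4 heart and liver profiles reached a log2 value of 3. These profiles are frozen heart, FFPE heart, frozen liver and FFPE liver, 4 of the 8 profiles that the table holds, and the series holds 32 libraries in all. FFPE tissue was fixed in 10% formalin and embedded in paraffin, whereas frozen tissue was flash frozen and crosslinked with 1% formaldehyde for 30 min before shearing, so preservation and extraction differ together. The antibody used for immunoprecipitation recognises the C-terminal domain of Pol II. The organs are whole pieces of tissue from mice, and the sources used here do not give strain, sex or age. The labels give 2 libraries for each organ and preservation, but the table has 1 column for each, and the sources used here do not tell if that column holds 1 of these libraries or their sum. The columns are taken to hold the Pol II and not the input libraries from the table's title.

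Pol II is the enzyme that transcribes protein-coding genes and many noncoding RNAs, and reads over a gene rise with the amount of enzyme on it. The heart is an oxidative muscle. Its cardiomyocytes carry sarcomeres, calcium release units and dense mitochondria, and burn fatty acids, lactate, glucose and ketone bodies. The liver is a secretory and metabolic organ. Its hepatocytes make most plasma proteins, release glucose and ketone bodies, dispose of nitrogen as urea and convert cholesterol and foreign compounds for excretion. In tissue pieces, fewer cells of a type and less Pol II per cell cannot be told apart.

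All levels below are log2 of depth-scaled reads over the gene, so that a step of 1 is a change by a factor of 2, and a level is read across profiles of the same gene and not between genes. The profiles held 1583260 reads in genes in frozen heart, 923888 in FFPE heart, 2178329 in frozen liver and 864816 in FFPE liver. Genes of the mitochondrial genome took 11.99% of the reads in frozen heart, 25.6% in FFPE heart, 10.1% in frozen liver and 11.8% in FFPE liver. Olfactory and vomeronasal receptor genes, which are silent in both organs, had a median level of 1.59 in frozen heart, 2.14 in FFPE heart, 1.79 in frozen liver and 2.27 in FFPE liver. This median was thus higher in FFPE than in frozen tissue of both organs.

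Differences are heart minus liver with preservation as a block, ± the standard error of limma's moderated test, and "past the threshold" means a Benjamini-Hochberg adjusted p under 0.05 over all 20305 genes, with 2 profiles per organ. The 4 profiles of brain and kidney enter the fit to estimate the spread. The profiles are not known to come from separate animals. No profile is repeated within an organ and preservation, so spread between replicates was not measured. The p-values rest instead on how far organ differences change between frozen and FFPE tissue, which may be technical. This spread has 3 residual degrees of freedom, against 17.4 for the prior that limma estimates from all genes tested. Most of the weight in each gene's spread thus comes from other genes.

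Short sequences are shown first for the genes that the comparison turns on. Myh6 and Myh7, the fast and slow cardiac myosin heavy chains, each hold a microRNA in an intron, and both microRNAs were among the genes with the largest difference toward heart. The mature 3p arms are given with the seed, bases 2 to 8, in capitals (RefSeq, build GRCm38.p6).
miR-208a-3p: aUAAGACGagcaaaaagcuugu
miR-208b-3p: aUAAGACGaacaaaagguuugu
The arms share the seed and are identical at 19 of 22 positions. Promoters are given for a sarcomere gene and for 2 liver genes because each holds a match to a motif of its organ, in capitals, within the 250 bases before its annotated start (RefSeq, build GRCm38.p6). The Actc1 promoter lies at chr2:114052876-114053125 on the minus strand and holds a CArG box, the element bound by serum response factor. The Alb promoter at chr5:90460620-90460869 and the G6pc promoter at chr11:101367466-101367715, both on the plus strand, hold a match to GTTAATNAT, the element of the HNF1 factors. The capitals farther upstream in Alb mark a match to TTGCNNAA, a C/EBP element, on the reverse strand.
Actc1 promoter: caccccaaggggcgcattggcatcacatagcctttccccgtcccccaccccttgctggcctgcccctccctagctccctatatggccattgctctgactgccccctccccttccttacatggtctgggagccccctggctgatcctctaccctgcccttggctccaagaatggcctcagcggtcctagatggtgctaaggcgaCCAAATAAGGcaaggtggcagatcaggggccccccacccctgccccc
Alb promoter: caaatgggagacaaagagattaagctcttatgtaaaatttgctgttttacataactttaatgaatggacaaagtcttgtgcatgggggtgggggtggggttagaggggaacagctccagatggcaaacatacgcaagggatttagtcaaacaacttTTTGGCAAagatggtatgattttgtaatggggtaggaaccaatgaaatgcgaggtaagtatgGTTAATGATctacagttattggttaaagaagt
G6pc promoter: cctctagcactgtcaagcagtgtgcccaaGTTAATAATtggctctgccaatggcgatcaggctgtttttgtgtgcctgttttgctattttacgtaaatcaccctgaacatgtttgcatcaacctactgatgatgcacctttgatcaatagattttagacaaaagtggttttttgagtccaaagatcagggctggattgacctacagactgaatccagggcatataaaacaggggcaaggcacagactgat
The CArG box of Actc1 ends 38 bases before the start, the HNF1 match of Alb ends 24 bases before it, and the HNF1 match of G6pc ends 213 bases before it.

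Pol II stood higher in heart on 1006 genes (4.95% of those tested) and higher in liver on 1024 (5.04%), together 10.0%. The counts of all gene lists below are read against these shares of 4.95% and 5.04%. The genes with the largest differences toward heart included those of the contractile apparatus. Cmtm5, Mhrt, Mir208a and Mir208b were also among them, but these overlap Myh6 or Myh7, and reads of overlapping genes cannot be told apart here. Genes outside the contractile apparatus, such as Mir1a-1hg and Nppb, were among them too. The largest differences toward liver included genes of plasma proteins, gluconeogenesis and amino acid breakdown. The median difference over all 20305 genes was 0.03. At an unadjusted p under 0.05, 4438 genes differed. Both heart profiles lay above both liver profiles for 998 of the 1006 genes, against 22.9% of all genes tested, and below them for 1011 of the 1024, against 20.3%. The counts depended on single profiles. Without frozen heart, 242 genes were higher in heart and 420 in liver. Without FFPE heart the counts were 433 and 626, and without frozen liver 863 and 486. Of the genes tested, 323 reached the minimum in heart profiles only and 334 in liver profiles only, and these had to differ. With the minimum required in both organs, 934 of 19648 genes were higher in heart and 916 in liver. The minimum had 586 kept genes whose second-highest value lay below 3.1 and 167 genes left out whose second-highest value was at least 2.9.

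The 4 marker genes were read first. Myh6 stood at 11.90 in frozen heart, 10.77 in FFPE heart, 4.94 in frozen liver and 5.54 in FFPE liver. The organs did not overlap, and the difference was 6.09 ± 0.34 (adjusted p = 1.50e-09, limma). Alb, the gene of serum albumin, stood at 3.38 and 4.37 in frozen and FFPE heart and at 11.41 and 8.71 in frozen and FFPE liver, a difference of -6.19 ± 0.53 (adjusted p = 2.49e-07, limma). Its liver level was lower in FFPE and its heart level higher, so that the difference was narrower in FFPE tissue. Cpt1b, the muscle form of the enzyme that admits fatty acids to mitochondria, stood at 4.69 and 3.23 in frozen and FFPE heart and at 1.26 and 3.19 in frozen and FFPE liver. Its difference of 1.74 ± 0.98 did not pass the threshold (adjusted p = 0.324, limma) and was -0.06 without frozen liver. Cpt1b had 38 and 7 reads in frozen and FFPE heart and 4 and 8 in frozen and FFPE liver. Cpt1a, the liver form, stood at 6.61 and 6.36 in heart and at 7.52 and 7.06 in liver, a difference of -0.80 ± 0.28 that did not pass the threshold either (adjusted p = 0.0779, limma). Both liver profiles of Cpt1a lay above both heart profiles. Thus 1 marker of each organ passed the threshold, and the carnitine palmitoyltransferase pair did not.

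**Figure D1:**
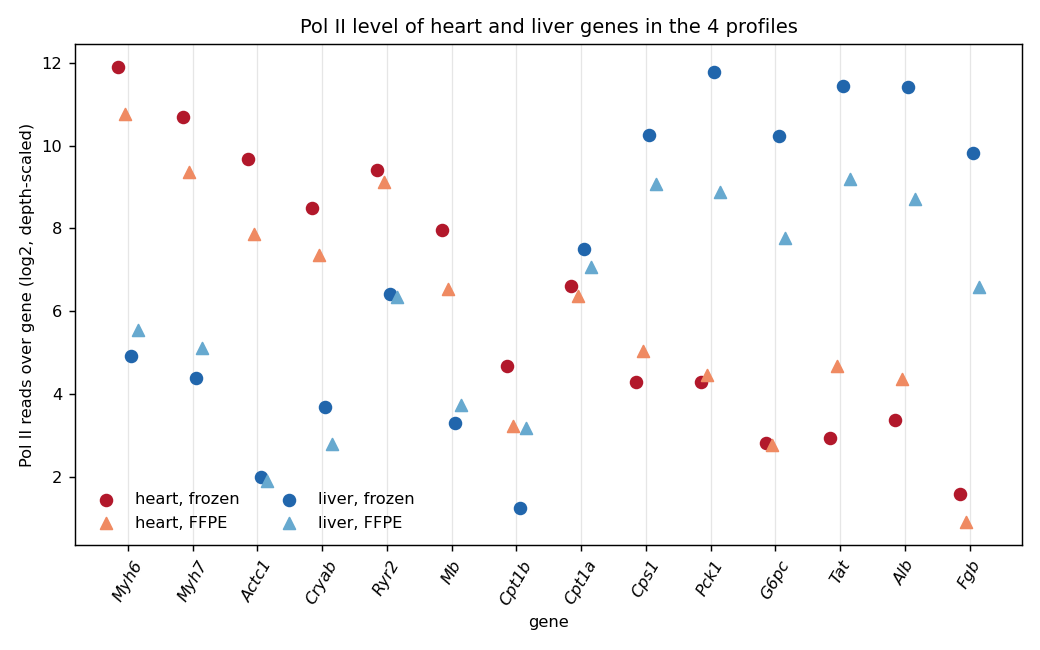
Pol II level (vertical axis, log2 of depth-scaled reads over the gene) of 14 genes (horizontal axis) in frozen (circles) and FFPE (triangles) heart and liver; each point is 1 profile, with no error bar. Myh6 to Mb lie higher in heart, Cps1 to Fgb higher in liver, and the 2 FFPE points of Cpt1b coincide near 3.2.

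Genes of the sarcomere, the contractile unit of muscle, were higher in heart almost throughout. Of 31 listed genes 30 were tested, and 27 of these were higher in heart and none in liver, with a median difference of 3.28 (3.82 in frozen and 2.71 in FFPE tissue) against 0.03 over all genes. Of the 30, 3 reached the minimum in heart profiles only and so had to differ, Actc1 and Tcap among them. Of the 27, 20 remained without frozen heart, and Myl7 was not tested. Actc1, cardiac actin, stood at 9.66 and 7.86 in frozen and FFPE heart and at 1.998 and 1.91 in liver, the largest difference toward heart of any gene tested (6.81 ± 0.47, adjusted p = 1.98e-08, limma). Myh7 stood at 10.69 and 9.36 in heart and at 4.39 and 5.12 in liver (5.27 ± 0.35). Tcap, telethonin of the Z-disc, stood at 6.82 and 6.25 in heart and at -0.32 and 2.56 in liver (5.42 ± 0.74, adjusted p = 6.04e-05, limma). For all 3 genes, heart and liver profiles did not overlap, which the minimum ensured for Actc1 and Tcap. Cryab, a small heat shock protein bound to the Z-disc, differed by 4.67 ± 0.36, but it overlaps Hspb2, and reads of overlapping genes cannot be told apart here. The same limit holds for other genes named below whose span overlaps another gene, such as Mb, Ckm, Fabp3, Cox6a2, Perm1, Tat and Hnf4a. Des, the muscle intermediate filament, differed by 3.45 ± 0.40. Pdlim5, a Z-disc adaptor, did not pass the threshold (0.81 ± 0.29, adjusted p = 0.0841, limma).

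The differences at Myh6 and Myh7 ended at the borders of a short stretch. On chromosome 14, 8 neighbouring tested genes from Efs to Mir208b were all higher in heart, between positions 54916543 and 54994626 (mm10), although the call of Efs was lost without FFPE heart. Cmtm5, which overlaps Myh6, stood at 8.42 and 7.55 in frozen and FFPE heart and at 2.95 and 3.19 in liver. Mhrt, a long noncoding RNA gene that overlaps Myh7, stood at 5.84 and 4.28 in heart and at -1.91 and 2.27 in liver, but its call was lost without any 1 of 5 profiles, among them both heart profiles and frozen liver. Mir208a had 95 and 22 reads in frozen and FFPE heart and 0 and 1 in frozen and FFPE liver (6.02 ± 1.63, adjusted p = 0.0207, limma), and its call was lost without either heart profile or frozen liver. Mir208b had 38 and 14 reads in heart and 0 in both liver profiles. Counting 3 reads over the liver profiles as the floor, its depth-scaled reads were 21.3-fold higher in heart. For Mir208b, the lower 95% binomial limit of the heart to liver ratio, from the read counts alone, was 16.7. Its call (adjusted p = 0.0453, limma) was lost without any 1 of 6 profiles. The microRNAs lie inside their host genes, so their reads cannot be told apart from those of Myh6 and Myh7. Mhrt, Mir208a, Mir208b and a further gene of the stretch reached the minimum in heart profiles only and so had to differ. Slc22a17 on one side (0.80, adjusted p = 0.327, limma) and Ngdn on the other (-0.31, adjusted p = 0.726, limma) did not pass the threshold.

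**Figure D2:**
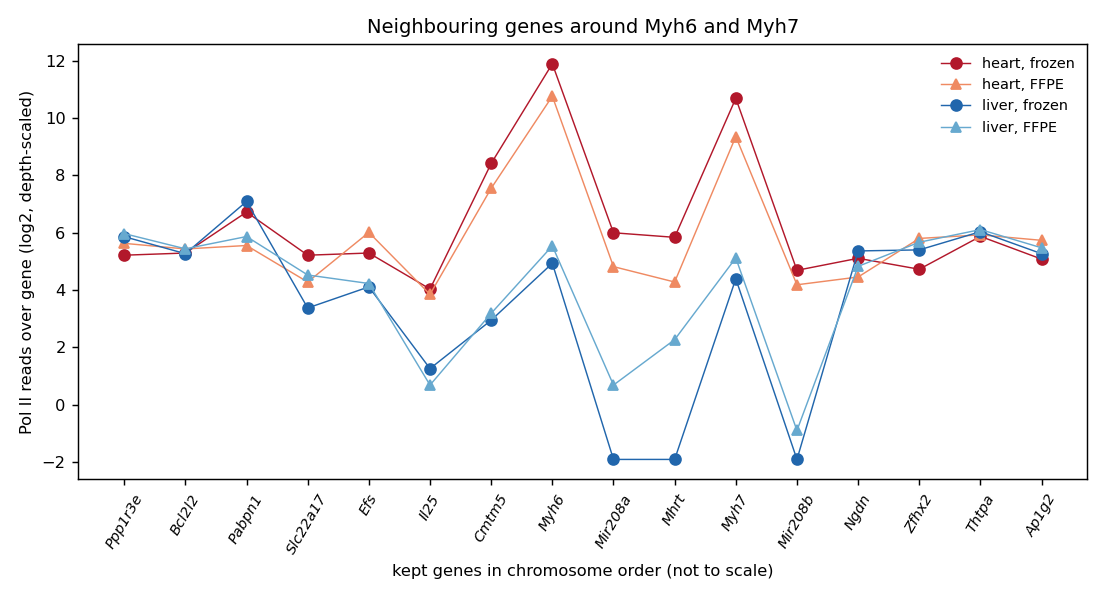
Pol II level (vertical axis, log2 of depth-scaled reads over the gene) of 16 tested genes in chromosome order around Myh6 and Myh7 (horizontal axis, not to scale) in the 4 profiles; lines join the genes of 1 profile. The 8 genes from Efs to Mir208b are higher in heart, whereas the 4 genes on either side are not past the threshold.

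A further microRNA gene outside this stretch was covered by its host. Mir1a-1hg, on chromosome 2, is the host of miR-1a-1 and miR-133a-2, the most abundant microRNA families of muscle. It stood at 8.64 and 6.89 in frozen and FFPE heart and at 1.26 and 2.80 in liver (5.73 ± 0.58, adjusted p = 1.85e-06, limma). Mir1a-1hg reached the minimum in heart profiles only and so had to differ. Of 20 microRNA genes tested, 2 were higher in heart, Mir208a and Mir208b, and none in liver, against 4.95% and 5.04% of all genes. Nppb, the gene of B-type natriuretic peptide, a hormone that heart muscle releases under load, stood at 7.39 and 6.22 in heart and at 1.79 and 3.19 in liver (4.31 ± 0.60). Its heart and liver profiles did not overlap.

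Calcium handling and excitation genes link the action potential to contraction. Of 26 listed genes 25 were tested, and 19 were higher in heart (against 4.95% of all genes) and none in liver. The median difference was 1.73. Of the 19, 10 remained without frozen heart and 12 without FFPE heart. Ryr2, the calcium release channel, stood at 9.42 and 9.12 in frozen and FFPE heart and at 6.42 and 6.36 in liver (2.88 ± 0.27, adjusted p = 7.15e-07, limma). Jph2, which holds the release channel against the cell membrane, differed by 3.41 ± 0.36, and Gja1, the connexin of the ventricular gap junction, by 3.39 ± 0.33. Hrc, a calcium-binding protein of the sarcoplasmic reticulum, differed by 2.45 ± 0.43. Kcnq1, a repolarizing potassium channel, did not pass the threshold (0.92 ± 0.40, adjusted p = 0.172, limma).

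Among the 14 cardiac and muscle transcription factors, all tested, 5 were higher in heart (against 4.95% of all genes) and none in liver. The median difference was 1.25 (1.52 in frozen and 0.40 in FFPE tissue). Myocd, the coactivator of serum response factor, stood at 7.43 and 6.59 in frozen and FFPE heart and at 4.32 and 4.72 in liver (2.49 ± 0.38, adjusted p = 0.000191, limma). Hand2 differed by 2.43 ± 0.39 and Tbx20 by 2.27 ± 0.31. Tbx5 differed by 2.05 ± 0.48, but its heart levels were 4.76 in frozen and 6.78 in FFPE tissue, and the call was lost without FFPE heart. Gata6 differed by 1.67 ± 0.34, a call that was lost without frozen heart. Gata4 (0.54 ± 0.33, adjusted p = 0.366, limma) and Srf (0.40 ± 0.30, adjusted p = 0.496, limma), known in both organs, did not pass the threshold.

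Of 7 genes that buffer and move high-energy phosphate or store oxygen, all tested, 6 were higher in heart, with a median difference of 2.55, and 4 of the 6 remained without frozen heart. Mb, myoglobin, stood at 7.96 and 6.55 in frozen and FFPE heart and at 3.30 and 3.75 in liver (3.73 ± 0.46, adjusted p = 1.93e-05, limma). Slc25a4, the muscle ADP/ATP carrier, stood at 7.999 and 6.32 in heart and at 3.76 and 3.75 in liver (3.40 ± 0.39, adjusted p = 8.80e-06, limma). Ckmt2, mitochondrial creatine kinase, differed by 3.19 ± 0.50 and Ak1, adenylate kinase, by 1.96 ± 0.33. Ckm, cytosolic creatine kinase, stood at 6.56 and 4.28 in heart and at 1.998 and 3.75 in liver, and its call (2.55 ± 0.72, adjusted p = 0.0277, limma) was lost without frozen heart and without frozen liver. Slc25a3, the phosphate carrier, did not pass the threshold (1.02 ± 0.34, adjusted p = 0.0635, limma). The share of all genes higher in heart was 4.95%.

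Of 59 listed nuclear genes of the chain and of ATP synthase, 58 were tested, and 5 were higher in heart and none in liver, 45 having a difference above 0. The median difference was 0.41. A share of 5 in 58 lies near the 4.95% of all genes, and none of the 5 remained without frozen heart or without FFPE heart, 1 without FFPE liver and 2 without frozen liver. Among these 5 were 2 muscle forms of cytochrome c oxidase subunits, which reached the minimum in heart profiles only and so had to differ. Cox6a2 stood at 5.60 and 4.19 in frozen and FFPE heart and at 1.55 and 1.91 in liver (3.17 ± 0.92), and Cox8b at 4.40 and 4.08 in heart and at 2.34 and -0.90 in liver (3.52 ± 0.92). Cox8b had no reads in FFPE liver. Cycs, cytochrome c, differed by 1.31 ± 0.30. Atp5a1, the alpha subunit of ATP synthase, did not pass the threshold (0.73 ± 0.29, adjusted p = 0.127, limma). With genes of the mitochondrial genome left out of the totals, all 5 calls remained and the median was 0.45.

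Of 27 genes of pyruvate dehydrogenase and the citric acid cycle, all tested, 4 were higher in heart (against 4.95% of all genes) and 1 in liver (against 5.04%). The median difference was 0.22. Ogdh, of the oxoglutarate dehydrogenase complex, stood at 8.62 and 7.997 in frozen and FFPE heart and at 6.95 and 6.88 in liver (1.40 ± 0.27, adjusted p = 0.00162, limma), and Cs, citrate synthase, differed by 1.02 ± 0.28. Of the 5 calls, 1 remained without frozen heart, 1 without FFPE heart and 3 without each of the other 6 profiles, and the calls of Ogdh and Cs were lost without frozen heart. The gene on the liver side was Suclg2, the GTP-specific succinyl-CoA ligase subunit (-1.86 ± 0.47), a call that was lost without FFPE heart and without frozen liver. Dlat, of the pyruvate dehydrogenase complex, did not pass the threshold (0.43 ± 0.28, adjusted p = 0.408, limma).

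Of 10 regulators of oxidative genes, all tested, 4 were higher in heart (against 4.95% of all genes) and none in liver. The median difference was 0.08. Of the 4, 1 remained without frozen heart and 2 without FFPE heart. Perm1, a muscle regulator of mitochondrial genes, stood at 7.61 and 7.42 in frozen and FFPE heart and at 4.50 and 5.37 in liver (2.58 ± 0.33, adjusted p = 2.49e-05, limma). The coactivators Ppargc1b (1.71 ± 0.34) and Ppargc1a (0.99 ± 0.28, adjusted p = 0.0302, limma) were also on the heart side. The call of Ppargc1b was lost without frozen heart, and that of Ppargc1a without any 1 of 6 profiles. Ppara, the receptor that drives fatty acid oxidation in both organs, did not pass the threshold (-0.75 ± 0.29, adjusted p = 0.11, limma).

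Of 34 genes of fatty acid uptake and mitochondrial beta-oxidation, all tested, 4 were higher in heart (against 4.95% of all genes) and 4 in liver (against 5.04%), 26 did not pass the threshold, and the median difference was -0.05. Of these 8, 4 remained without frozen heart and 5 without frozen liver. On the heart side, Lpl, which frees fatty acids from lipoproteins at the vessel wall, stood at 8.65 and 7.46 in frozen and FFPE heart and at 5.99 and 4.31 in liver (2.91 ± 0.40, adjusted p = 7.59e-05, limma). Cd36, the fatty acid receptor of muscle and capillaries, differed by 2.76 ± 0.30, and Fabp3, the cytosolic binding protein of heart, by 3.40 ± 0.55. Acacb, the mitochondrial acetyl-CoA carboxylase that restrains fatty acid entry, was the fourth (0.84 ± 0.26, adjusted p = 0.0468, limma), a call that was lost without any 1 of the 8 profiles. On the liver side, Slc27a2, an acyl-CoA synthetase and transporter, stood at 4.10 and 2.79 in heart and at 8.34 and 6.88 in liver (-4.16 ± 0.38, adjusted p = 6.83e-07, limma). Fabp1, the liver binding protein, stood at 1.88 and 1.65 in heart and at 7.15 and 3.86 in liver (-3.74 ± 0.90, adjusted p = 0.00935, limma). The calls of Fabp1 and Fabp3 were lost without frozen heart, and that of Fabp1 also without frozen liver. Fabp1 reached the minimum in liver profiles only and so had to differ. Of 15 tested peroxisomal genes (of 16 listed), none was higher in heart and 6 were higher in liver, of which 3 remained without frozen heart and 2 without frozen liver. Cat, catalase, differed by -3.29 ± 0.36 and Scp2, a sterol carrier and thiolase, by -2.58 ± 0.38.

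Of 20 glycolysis genes, all tested, 6 were higher in heart and none in liver, with a median difference of 0.74, but none of the 6 remained without frozen heart and 3 without frozen liver. The other 14 did not pass the threshold. The share of all genes higher in heart was 4.95%. Slc2a4, the insulin-responsive glucose transporter, stood at 6.75 and 6.20 in frozen and FFPE heart and at 3.76 and 4.88 in liver (2.15 ± 0.40, adjusted p = 0.00121, limma). Ldhb, the lactate dehydrogenase form of heart, differed by 1.74 ± 0.44 and Hk2, hexokinase, by 1.63 ± 0.32. Of 4 genes of ketone body use, all tested, 2 lay above 0 and 2 below, and the median difference was 0.22 (-0.38 in frozen tissue). Of the 4, 1 was higher in heart, against 4.95% of all genes. That gene, Oxct1, which starts ketone body use and is known to be low in hepatocytes, stood at 5.32 and 4.75 in heart and at 2.95 and 3.19 in liver (1.97 ± 0.40, adjusted p = 0.00232, limma), a call that was lost without frozen heart.

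**Figure D3:**
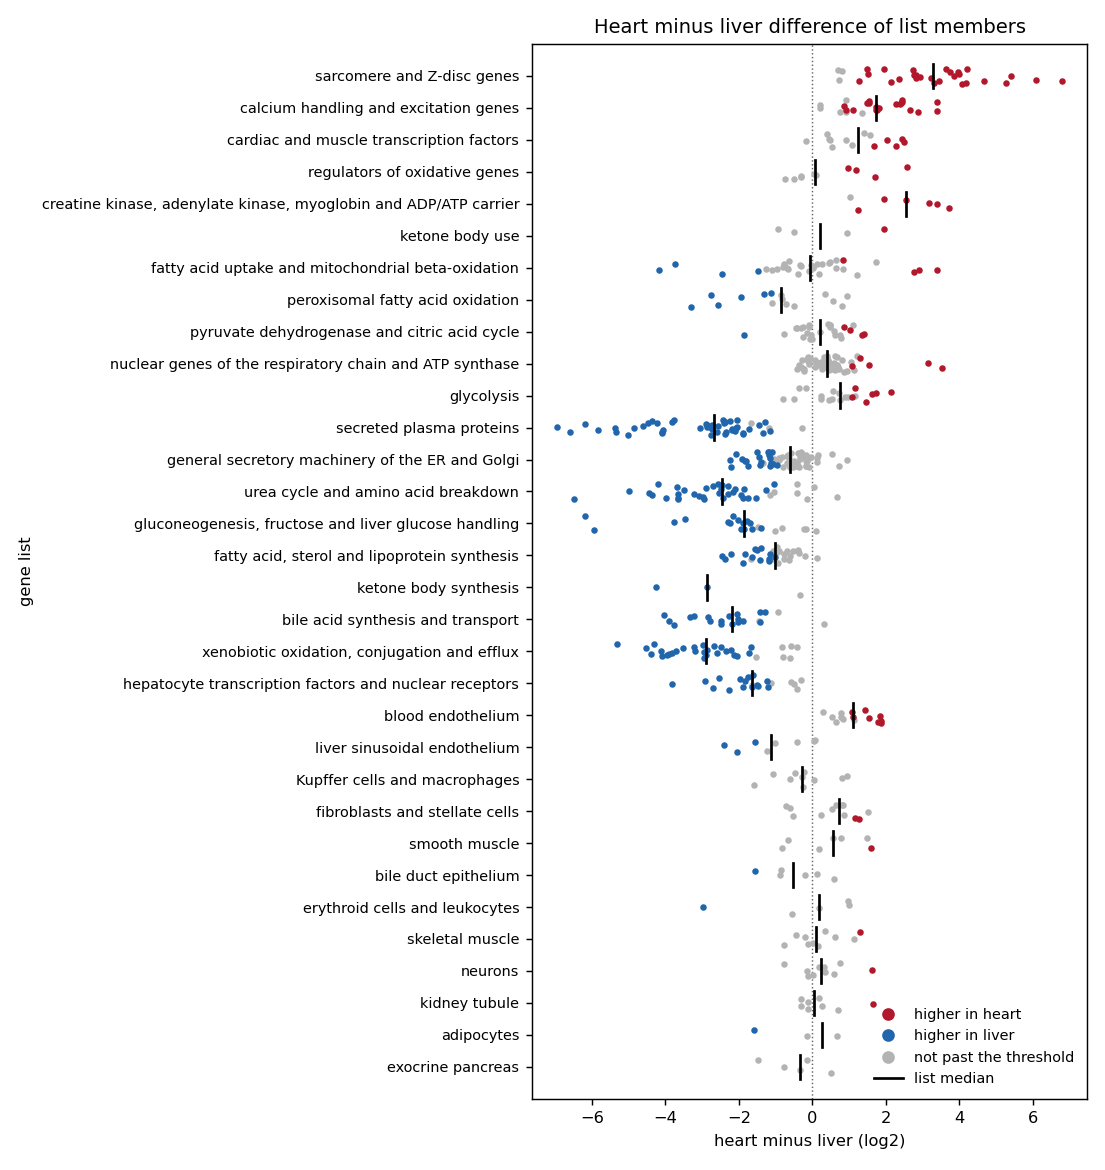
Heart minus liver difference (horizontal axis, log2) of every tested member of the 32 gene lists (vertical axis); points are genes, coloured when past the threshold, scattered vertically within a list for legibility, and black bars are list medians. Sarcomere genes lie on the right (median 3.28), plasma protein genes on the left (median -2.66), and respiratory chain genes near 0 (median 0.41).

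Of 51 listed genes of secreted plasma proteins 50 were tested, and 47 were higher in liver and none in heart, with a median difference of -2.66 (-3.47 in frozen and -1.86 in FFPE tissue). Of the 50, 4 reached the minimum in liver profiles only and so had to differ, Fgb and Apoa5 among them. Of the 47, 24 remained without frozen heart, 27 without frozen liver and 37 without FFPE heart. Fgb, the beta chain of fibrinogen, stood at 1.59 and 0.91 in frozen and FFPE heart and at 9.81 and 6.59 in liver (-6.95 ± 0.63, adjusted p = 6.16e-07, limma), and Fga, its alpha chain, differed by -5.36 ± 0.55. Apoa5, an apolipoprotein that acts on lipoprotein lipase, stood at 2.33 and 2.50 in heart and at 10.21 and 7.80 in liver (-6.59 ± 0.56, adjusted p = 2.49e-07, limma). Igfbp1, a binding protein for insulin-like growth factors, differed by -5.83 ± 0.54. In these 4 genes the liver level was lower in FFPE than in frozen tissue. Their heart and liver profiles did not overlap, which the minimum ensured for Fgb and Apoa5. Serpind1, heparin cofactor, did not pass the threshold (-1.18 ± 0.39, adjusted p = 0.0596, limma).

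The major urinary proteins, pheromone carriers that mouse liver secretes, stood at the far end of the range. Mup3 had 0 and 4 reads in frozen and FFPE heart and 925 and 67 in frozen and FFPE liver (-7.10 ± 1.12, adjusted p = 0.000243, limma), and its call was lost without frozen liver. Mup3 reached the minimum in liver profiles only and so had to differ. Genes of this family are near-identical copies, and the sources used here do not say how the counting divided reads among them. Mug1, a murinoglobulin of plasma, differed by -5.49 ± 0.36.

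Of 66 listed genes of the endoplasmic reticulum and Golgi, which fold and export secreted proteins, 65 were tested, and 20 were higher in liver and none in heart, against 5.04% of all genes. The median difference was -0.61, 59 of the 65 lay below 0, and the median was -0.95 in frozen and -0.25 in FFPE tissue. The count fell to 4 without frozen heart, 4 without frozen liver and 6 without FFPE heart. Creld2, a stress-induced protein of the endoplasmic reticulum, stood at 4.90 and 3.97 in frozen and FFPE heart and at 7.26 and 6.07 in liver (-2.23 ± 0.38, adjusted p = 0.000453, limma). Dnajb11, a cochaperone of the endoplasmic reticulum, differed by -1.91 ± 0.40, and Sec16b, of the export sites, by -1.84 ± 0.35. Both calls were lost without frozen heart and without frozen liver. Sec16a, the common form of that scaffold, did not pass the threshold (-0.61 ± 0.26, adjusted p = 0.165, limma).

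Genes of the urea cycle and amino acid breakdown were higher in liver in 33 of 40, all tested, with none higher in heart and a median difference of -2.47. Of the 33, 23 remained without frozen heart and 25 without frozen liver. Tat, tyrosine aminotransferase, stood at 2.95 and 4.69 in frozen and FFPE heart and at 11.44 and 9.19 in liver (-6.50 ± 0.54, adjusted p = 1.93e-07, limma). Cps1, the entry enzyme of the urea cycle, stood at 4.31 and 5.06 in heart and at 10.25 and 9.08 in liver (-4.99 ± 0.35, adjusted p = 2.29e-08, limma). Ass1, of the same cycle, differed by -4.19 ± 0.35 and Bhmt, of methionine metabolism, by -4.45 ± 0.40. Got1, an aspartate aminotransferase shared by many tissues, did not pass the threshold (-0.41 ± 0.28, adjusted p = 0.434, limma).

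Genes of gluconeogenesis, fructose use and liver glucose handling were higher in liver in 15 of 21, all tested, with a median difference of -1.87, and 11 of the 15 remained without frozen heart. Pck1, which turns oxaloacetate to phosphoenolpyruvate, stood at 4.31 and 4.46 in frozen and FFPE heart and at 11.78 and 8.88 in liver (-5.95 ± 0.44, adjusted p = 4.33e-08, limma). G6pc, which frees glucose for export, stood at 2.82 and 2.79 in heart and at 10.22 and 7.78 in liver (-6.20 ± 0.49, adjusted p = 1.07e-07, limma). G6pc reached the minimum in liver profiles only and so had to differ. Kidney is the other gluconeogenic organ, and there Pck1 stood at 9.46 and 7.88 and G6pc at 6.12 and 6.87 in frozen and FFPE tissue. Foxo1, a factor that insulin restrains, did not pass the threshold (-0.81 ± 0.29, adjusted p = 0.085, limma).

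Bile acid synthesis and transport genes were higher in liver in 18 of 21, all tested, with a median difference of -2.18. Cyp7a1, the rate-limiting enzyme of bile acid synthesis, stood at 2.95 and 4.75 in frozen and FFPE heart and at 7.84 and 7.36 in liver (-3.75 ± 0.44, adjusted p = 9.85e-06, limma), and Slco1a1, an uptake transporter of organic anions, differed by -4.04 ± 0.47. Xenobiotic oxidation, conjugation and efflux genes were higher in liver in 27 of 33, all tested, with a median difference of -2.88. Cyp2e1, an ethanol-inducible cytochrome P450, stood at 3.63 and 3.42 in heart and at 9.07 and 7.03 in liver (-4.52 ± 0.43, adjusted p = 9.43e-07, limma), and Cyp3a25 differed by -5.33 ± 0.57. Cyp3a25 reached the minimum in liver profiles only and so had to differ. Of the 18 bile acid genes 12 remained without frozen heart, as did 19 of the 27 xenobiotic genes. Of 32 genes of fatty acid, sterol and lipoprotein synthesis, all tested, 14 were higher in liver, of which 3 remained without frozen heart, 7 without frozen liver and 8 without FFPE heart. The share of all genes higher in liver was 5.04%. Lpin2, which makes diacylglycerol, differed by -2.45 ± 0.29, whereas Srebf1, the sterol response factor, did not pass the threshold (-0.77 ± 0.31, adjusted p = 0.137, limma).

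Among 21 hepatocyte transcription factors and nuclear receptors, all tested, 15 were higher in liver, with a median difference of -1.63, and 3 of the 15 remained without frozen heart and 8 without frozen liver. Hnf4a, the central nuclear receptor of hepatocytes, stood at 4.31 and 4.69 in frozen and FFPE heart and at 9.21 and 7.40 in liver (-3.81 ± 0.37, adjusted p = 1.19e-06, limma). Foxa2 differed by -2.91 ± 0.46, and Foxa3 by -2.53 ± 0.49, the latter call being lost without either frozen profile. Cebpb, a factor induced in many tissues, did not pass the threshold (-1.11 ± 0.39, adjusted p = 0.0785, limma).

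The calls of some lists moved with the fit or the scaling. Without the trend in the spread, 3 of the 20 calls of secretory machinery remained, 2 of the 14 of lipid synthesis, none of the 5 of the citric acid cycle, 1 of the 6 of glycolysis, 6 of the 15 of hepatic factors and 9 of the 19 of calcium handling. With levels set equal on the silent receptor genes, 7 of the 20, 5 of the 14, 1 of the 5, 4 of the 6, 9 of the 15 and 16 of the 19 remained. Sarcomere genes kept 23 and 26 of 27 calls under these settings, plasma protein genes 32 and 43 of 47, and genes of the urea cycle and amino acid breakdown 26 and 30 of 33. With the minimum required in both organs, 24 of the 27 sarcomere calls remained, 43 of the 47 of plasma proteins, 24 of the 27 of xenobiotic metabolism, 16 of the 18 of bile acids, 14 of the 15 of liver glucose handling, where G6pc was the gene left out, and 3 of the 5 of the respiratory chain.

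Where muscle and liver use different genes for the same function, the forms were set side by side in 32 pairs. In every pair the heart minus liver difference was larger for the muscle form than for the liver form, in 26 of them in both preservations, and the gap had a median of 2.73 (3.29 in frozen and 2.23 in FFPE tissue). Both forms passed the threshold in 10 pairs, the muscle form alone in 7, the liver form alone in 7 and neither in 8, and no form passed it in the direction opposite to its name. The pairs were chosen by the organ in which each form is known, so their direction is no independent evidence. The 10 pairs fell to 0 without frozen heart, 5 without frozen liver and 6 without FFPE heart. The widest pair was that of the fatty acid binding proteins Fabp3 and Fabp1, followed by the connexins Gja1 and Gjb1 (3.39 and -2.55) and the intermediate filaments Des and Krt8 (3.45 and -2.34). Glycogen phosphorylase split likewise, with Pygm at 2.03 ± 0.36 and Pygl at -1.87 ± 0.34, as did the glucose transporters Slc2a4 and Slc2a2 (2.15 and -1.93). Of these, the calls of Gjb1, Krt8, Pygm, Pygl, Slc2a4 and Slc2a2 were lost without frozen heart, and those of Gjb1, Krt8 and Slc2a2 also without frozen liver. Among pairs in which the muscle form alone passed the threshold, Lpl differed by 2.91 and hepatic lipase, Lipc, by -0.69 ± 0.44 (adjusted p = 0.402, limma). Among those with the liver form alone, Mat1a, the liver methionine adenosyltransferase, differed by -3.67 ± 0.37 and Mat2a, the form of other tissues, by 0.92 ± 0.30 (adjusted p = 0.0559, limma).

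**Figure D4:**
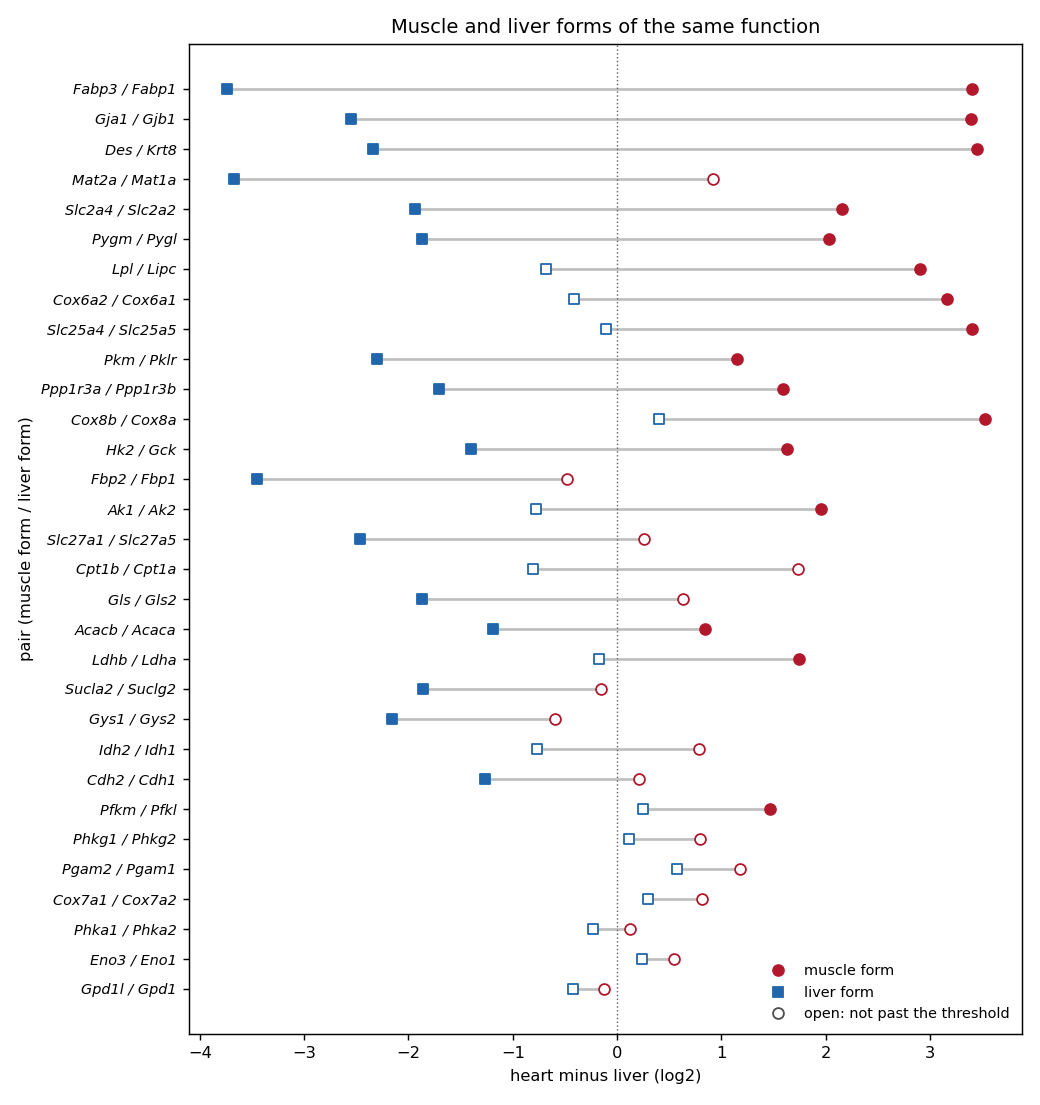
Heart minus liver difference (horizontal axis, log2) of the muscle form (circle) and liver form (square) of 31 of the 32 pairs of genes with the same function (vertical axis); filled symbols are past the threshold and no error is drawn. The muscle form lies to the right of the liver form in all 31 pairs shown, and both are filled in 9.

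Genes of cell types other than cardiomyocytes and hepatocytes were compared in the same way. Of 15 genes of blood endothelium, all tested, 8 were higher in heart (against 4.95% of all genes) and none in liver. The summed depth-scaled level of the 15 genes was 1532 in frozen and 1279 in FFPE heart against 605 and 629 in frozen and FFPE liver. Kdr, a receptor of vascular endothelial growth factor, stood at 8.30 and 7.89 in heart and at 6.65 and 5.79 in liver (1.87 ± 0.28, adjusted p = 0.000156, limma), and Pecam1 differed by 1.80 ± 0.32. Of the 8, 3 remained without frozen heart and 4 without FFPE heart. Cd36 and Lpl proteins are also found at capillary endothelium, and the part of this cell type in their differences was not tested. Of 8 genes of the liver sinusoid 3 were higher in liver (against 5.04% of all genes), among them the scavenger receptor Stab2 (-1.57 ± 0.28, adjusted p = 0.000728, limma). The summed level of the 8 genes was 376 and 330.1 in heart against 669 and 549 in liver. Of 10 tested macrophage genes (of 12 listed) none passed the threshold, with summed levels of 189.8 and 209.6 in heart and 198 and 235 in liver.

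Fibroblast and stellate cell genes numbered 2 of 12 on the heart side, Pdgfrb (1.28 ± 0.36) and Col1a1 (1.16 ± 0.32), and both calls were lost without frozen heart and without frozen liver. Of the 12 fibroblast and stellate cell genes, 9 lay above 0 and 3 below, with a median difference of 0.72. Of 7 smooth muscle genes, Smtn was higher in heart (1.59 ± 0.27) and the other 6 did not pass the threshold. Of these 7 genes, 5 lay above 0 and 2 below, with a median difference of 0.55. Of 10 tested skeletal muscle genes (of 12 listed), Casq1, the calsequestrin of fast skeletal muscle, was higher in heart (1.31 ± 0.40, adjusted p = 0.0401, limma), a call that was lost without any 1 of 7 profiles. The 10 tested skeletal muscle genes had a median difference of 0.09, with 6 above 0 and 4 below. Of 10 listed genes of erythroid cells and leukocytes 5 were tested, with a median difference of 0.19, and 1 passed the threshold. It was Alas2, the first enzyme of heme synthesis in erythroid cells, at -2.98 ± 0.61 (adjusted p = 0.00249, limma), which reached the minimum in liver profiles only and so had to differ. The alpha and beta globin genes Hba-a1 and Hbb-bs were below the minimum for testing in these profiles. The remaining lists, of bile duct, neuron, kidney tubule, adipocyte and exocrine pancreas genes, held at most 2 genes past the threshold each. The counts of these small lists are read against 4.95% of all genes higher in heart and 5.04% higher in liver.

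All 2030 genes past the threshold had the same sign in frozen and in FFPE tissue, which a fit with preservation as a block favours. The size differed. For 1458 of the 2030 the difference was smaller in FFPE tissue, 674 of the heart genes and 784 of the liver genes. The 2030 genes were chosen on these same values, and this count was not taken over all genes tested. The median difference of heart genes was 1.66 in frozen and 1.35 in FFPE tissue, and that of liver genes -2.24 and -1.45. Sarcomere genes followed this in 25 of 30 and plasma protein genes in 47 of 50, whereas the difference was smaller in FFPE in 19 of the 58 respiratory chain genes. Across all 20305 genes the Pearson correlation of the frozen and the FFPE difference was 0.442, a description across genes, which are not independent and share the depth of their profiles. The level of silent receptor genes was higher in the FFPE profiles, which also had fewer reads, and the part of either in the smaller differences was not tested.

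**Figure D5:**
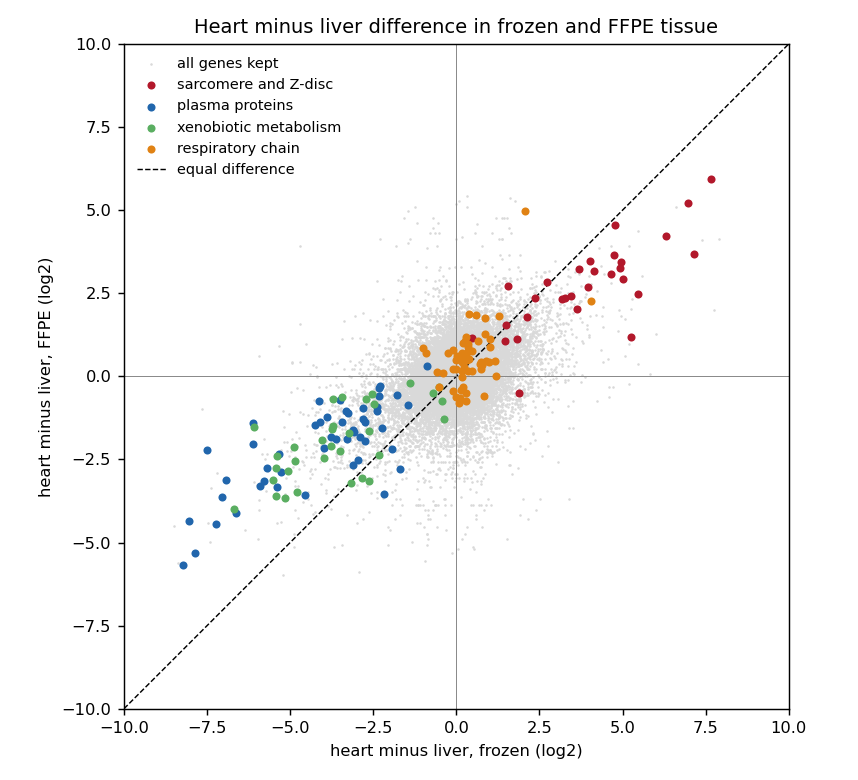
Heart minus liver difference in FFPE tissue (vertical axis, log2) against that in frozen tissue (horizontal axis, log2); grey points are all 20305 tested genes, coloured points 4 gene lists, and the dashed line marks equal differences. Sarcomere genes (median 3.82 frozen, 2.71 FFPE) and plasma protein genes (median -3.47 frozen, -1.86 FFPE) lie between the dashed line and the horizontal axis for the most part.

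Promoter letters were searched on both strands in the 250 bases before the annotated start, for 710 of the genes higher in heart and 756 of those higher in liver whose promoter was in the RefSeq table, for the 15177 tested genes with a promoter there, and for all 27025 promoters of that table. The HNF1 element GTTAATNAT was present in 4.23% of the liver genes and 0.28% of the heart genes against 0.70% of tested genes and 0.87% of all promoters, and in 5 of the 39 plasma protein genes with a promoter (12.8%), Alb among them. The C/EBP element TTGCNNAA was present in 15.6% of the liver genes and 8.73% of the heart genes against 9.90% of tested genes and 10.8% of all. The CArG box was present in 3.10% of the heart genes and 1.32% of the liver genes against 1.48% of tested genes and 1.62% of all, and in 6 of the 25 sarcomere genes with a promoter (24.0%), Actc1 among them. The MEF2 element was present in 4.79% of the heart genes, 1.98% of the liver genes, 2.39% of tested genes and 3.42% of all. An element of the estrogen-related receptors, TCAAGGTCA, was at 0.42% in heart genes, 0.40% in liver genes, 0.38% in tested genes and 0.42% in all. Myh6, Ckmt2 and Cpt1a held none of the searched elements in their 250 bases, and Fgb held the C/EBP element but not that of HNF1. A match is a string of letters and not a site known to be bound.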

How the data were processed

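The submitters' processing notes name Bowtie2, featureCounts, limma and the build mm10, without versions. Deposited log2 values came out as whole reads, with 0.5 reads added and scaled totals, for 100% of values (relative tolerance 1e-06). The sources used here do not say if introns were counted, or on which strand. Reads rose with gene span and levels are not per length, so levels were not compared between genes. Totals per profile were 864816 to 2178329 reads. Heart was compared with liver by limma 3.58.1 under R 4.3.3 (organ and preservation as terms, all 8 profiles, empirical Bayes with trended spread, 3 residual degrees of freedom, Benjamini-Hochberg). Entrez numbers of 25275 genes (93.0%) matched RefSeq GRCm38.p6, and 1275 rows without a symbol were kept under that number. The members and lists were chosen with earlier results of these data known. Named genes were the 4 markers, the 12 largest non-overlapping differences in each direction, up to 5 genes past the threshold and 2 not past it per list, and both forms of each pair; the text names a part of them, and other genes only where it says why. Input libraries were not analysed here, and some genes of the lists are not reported here by name.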

Additional observations from a re-analysis of the deposited data

Results flagged for a closer look

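All members of the gene lists and the named genes were screened, apart from those not reported by name. In 4 of these genes, the heart minus liver difference had opposite signs in frozen and FFPE tissue, at 0.75 or more in each. The difference between preservations was not tested, since each side has 1 profile. Hspa8, a constitutive chaperone, was at -0.97 in frozen and 0.81 in FFPE tissue, a frozen minus FFPE gap of -1.78. Sucla2, the ATP-specific succinyl-CoA ligase subunit, was at -1.12 in frozen and 0.83 in FFPE tissue, a gap of -1.95. Uqcrq, a subunit of respiratory complex III, was at -1.004 in frozen and 0.85 in FFPE tissue, a gap of -1.86. Cd3e, of the T cell receptor complex, was at -0.91 in frozen and 2.89 in FFPE tissue, a gap of -3.80. Over all 20305 genes tested, 642 (3.16%) had opposite signs of this size, 326 with the heart lower in frozen tissue, as in these 4 genes, and 316 with the heart higher.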

How the results depend on the processing

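No paired analysis was possible because the columns carry no replicate number. The count of 1006 genes higher in heart and 1024 higher in liver moved most with the trend in the spread and with single profiles. Without the trend, 374 and 449 genes passed, and 3 isozyme pairs had both forms past the threshold in place of 10. With 1 profile left out in turn, the counts ranged from 242 to 1201 and from 420 to 1382, and the pairs from 0 to 10; where this left 1 profile in an organ, that profile was assumed to vary like the others. With levels set equal on silent receptor genes, an alternative chosen after seeing the data that shifted the median of all genes to 0.19, 694 and 575 genes passed, with 6 pairs. The other alternatives (the 4 heart and liver profiles alone, other minimum levels, quantile scaling, median centring, mitochondrial genes left out, more reads added, voom weights, and the minimum asked in both organs, which was added after seeing the data) kept both counts within a factor of 1.5.

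Of the 99 genes past the threshold that the text names, none changed sign under any alternative in which it was tested (80 were tested with the minimum asked in both organs, and 80 at the higher minimum of 5), and 55 remained past it without each of the 8 profiles in turn; 39 were lost without frozen heart and 29 without frozen liver. Genes not past the threshold did change sign. With a profile left out, Cpt1b ranged from -0.057 to 3.53, Slc22a17 from -0.013 to 1.61, Sucla2 from -1.01 to 0.71, Hspa8 from -1.22 to 1.06, Uqcrq from -0.83 to 0.67 and Cd3e from -0.53 to 2.52. The value of Hspa8 without frozen liver, 1.06, passed the threshold (adjusted p = 0.0346, limma), and so did its value without FFPE liver, -1.22 (adjusted p = 0.00841, limma). Hspa8 was at 0.38 with quantile scaling, against -0.08. On silent receptor genes Hspa8 was at 0.090, Sucla2 at 0.017 and Uqcrq at 0.090. The cause was not tested. Depth limits genes of few reads, since a gene at 0 reads stands at -1.58 in frozen and -0.67 in FFPE heart and at -1.91 and -0.90 in frozen and FFPE liver.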

Other observations

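Runs of at least 4 neighbouring tested genes past the threshold in the same direction held 75 of the 1024 genes higher in liver (7.32%) and 16 of the 1006 higher in heart (1.59%). The longest was a run of 12 major urinary protein genes on chromosome 4, from Mup7 to Mup15, between positions 60066469 and 61439833 (mm10). The albumin family formed a run of 4 on chromosome 5, from Alb over Afp and Afm to Albfm1, and the apolipoproteins Apoc2, Apoc4, Apoc1 and Apoe a run of 4 on chromosome 7. A run of 6 on chromosome 16, from Dnajb11 over Ahsg, Fetub and Hrg to Kng1, joined a cochaperone gene to plasma protein genes. On chromosome 12, 5 alpha-1-antitrypsin genes and a further serpin gene formed a run of 6. The runs hold near-identical copies in the Mup and Serpina1 families, whose reads may have been divided between copies. These runs rest partly on single profiles. The call of Afp was lost without any 1 of the 8 profiles (-1.49 with all of them), that of Apoc2 without any 1 of 6, and those of Afm, Albfm1, Apoc1, Apoc4, Apoe, Fetub, Dnajb11 and Mup15 without frozen heart and without frozen liver, and that of Kng1 without frozen liver, whereas Mup7, Ahsg and Hrg remained past the threshold without each profile in turn. On the heart side the longest run was that of 8 genes around Myh6 and Myh7. In it, Cmtm5 and Mir208a overlap Myh6, and Mhrt and Mir208b overlap Myh7, so their reads cannot be told apart.

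Gene families, grouped by the start of their symbol after the values were seen, were read against the 4.95% of all genes higher in heart and the 5.04% higher in liver. Of 102 tested cytochrome P450 genes 37 were higher in liver and 1 in heart, and of 19 UDP-glucuronosyltransferase genes 12 were higher in liver and none in heart. Of 93 potassium channel genes whose symbol starts with Kcn, 11 were higher in heart and 2 in liver. Of 74 cytosolic ribosomal protein genes none passed the threshold in either direction with limma, and their median difference was 0.01. Of 76 mitochondrial ribosomal protein genes none passed it either, with a median of 0.02.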
